A study of Mus musculus with 6 samples.

Results

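The genes described are 10 components of bone morphogenetic protein (BMP) signalling and its inhibitor-of-differentiation (Id) output in cultured mouse myoblasts: Id1, Id2, Id3, Id4, Bmp2, Bmp4, Bmp6, Bmpr1a, Bmpr2 and Smad9. They were found by gene name in the annotation of a 1-colour Agilent mouse array and matched 11 of its 55681 non-control probes, 2 of them for Bmp4. Of the 10 genes, 9 were tested among 21960 genes, and Bmp6 was above background on none of the 6 arrays. Primary myoblasts kept with TGFb (transforming growth factor beta, a fibrogenic cytokine) for 4 days were set against untreated primary myoblasts, with 3 arrays each. Both groups came from skeletal muscle of male C57BL/6 mice aged 3 months, were sorted by flow cytometry, and grew in DMEM with 20% fetal bovine serum, itself a source of growth factors that both groups shared. The labels give neither the TGFb isoform, its dose, the sorting gate nor the number of mice behind a culture.

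BMP ligands bind type I receptors such as Bmpr1a together with type II receptors such as Bmpr2, and the type II receptor activates the type I receptor. The type I receptor phosphorylates Smad1, Smad5 and Smad9, which enter the nucleus with Smad4 and switch on target genes, of which the Id genes are the best known. Id proteins have a helix-loop-helix but no DNA-binding region, so they tie up E proteins and keep MyoD and its relatives from activating muscle genes. In muscle stem cells BMP signalling is known for holding myoblasts back from differentiation. TGFb itself signals mainly through other receptors and through Smad2 and Smad3.

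The promoters of the members whose calls differ between fits, Id2 and Bmp4, and of Id3, a close relative of Id2 that passed in neither fit, are shown to set their sequence beside the measurements. Each is the 250 bases before the gene's start in RefSeq (GRCm38.p6), 5′ to 3′ on the gene's own strand, at chr12:25096093-25096342 (minus strand) for Id2, chr4:136143572-136143821 (plus strand) for Id3 and chr14:46390670-46390919 (minus strand) for Bmp4. Capitals mark 3 motifs, which shared no base in these windows. GGCGCC is a GC-rich motif bound by BMP Smads, and CAGAC or its reverse complement GTCTG is a Smad motif. The E-box CANNTG is a general motif of helix-loop-helix factors, and MyoD and E proteins bind some of its forms.
Id2: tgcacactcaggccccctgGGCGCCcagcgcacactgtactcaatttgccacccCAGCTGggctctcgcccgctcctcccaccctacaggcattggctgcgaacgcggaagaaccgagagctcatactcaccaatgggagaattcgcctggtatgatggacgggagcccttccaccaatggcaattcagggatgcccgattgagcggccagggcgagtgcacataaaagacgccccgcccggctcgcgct
Id3: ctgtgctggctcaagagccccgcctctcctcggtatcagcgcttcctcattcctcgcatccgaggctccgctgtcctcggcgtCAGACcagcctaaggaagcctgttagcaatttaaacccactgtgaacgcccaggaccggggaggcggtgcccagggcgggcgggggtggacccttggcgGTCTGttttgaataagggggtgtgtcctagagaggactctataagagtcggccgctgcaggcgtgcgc
Bmp4: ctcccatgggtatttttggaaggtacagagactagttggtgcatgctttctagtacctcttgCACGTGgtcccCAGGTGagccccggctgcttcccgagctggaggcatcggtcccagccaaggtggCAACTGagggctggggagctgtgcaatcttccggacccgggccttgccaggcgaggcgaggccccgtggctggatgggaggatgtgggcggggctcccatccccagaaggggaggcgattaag
The Id2 window held 1 GGCGCC and 1 E-box, which began 231 and 196 bases before the start. The Id3 window held the Smad motif in both orientations, 68 and 167 bases before the start. In the Bmp4 window 3 E-boxes lay between 123 and 188 bases before the start. RefSeq promoters were found for 8 of the 10 members, all but Id1 and Bmp2, and 5 of those 8 held GGCGCC (Id2, Id4, Bmpr1a, Bmpr2 and Smad9), against 9.59% of all 32851 promoters of the same length. The Smad motif was in 2 of those 8 members and in 42.2% of all promoters, and the E-box in 4 of the 8 members and in 66.2% of all promoters. GC content of the member windows ran between 62.8% and 78.8%, and the shares were not taken at matched GC content. A match describes the letters and was not tested as a binding site.

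The probes lie in mm9 at chr2:152563083-152563142 (plus strand) for Id1, chr12:25778904-25778963 (minus) for Id2, chr4:135700075-135700249 (plus) for Id3 and chr13:48358668-48358727 (plus) for Id4. Those of Bmp2, Bmp6, Bmpr1a, Bmpr2 and Smad9 lie at chr2:133388260-133388319 (plus), chr13:38591479-38591538 (plus), chr14:35224339-35224398 (minus), chr1:59927276-59927335 (plus) and chr3:54605068-54605127 (plus). The Id3 probe is 60 bases long but spans 175 bases of the genome. An exon or UTR annotation of this build was not used here.

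Values are log2 processed intensity minus the array's own 75th percentile, so 0 is the level of a probe at that percentile, and differences are TGFb minus untreated. Scanning took place on 2 days: TGFb replicate 1 shared day 1 with untreated replicates 1 and 2, and TGFb replicates 2 and 3 shared day 2 with untreated replicate 3. The scan day separated the arrays more than TGFb did: the leading principal component held 72.4% of the variance and split the days, and the next held 16.3% and split the groups. Correlations across genes were 0.970 to 0.977 between a TGFb and an untreated array of 1 day, and 0.919 to 0.929 between replicates of a group from 2 days. Each result is therefore given from a limma fit on group alone and from the same fit with scan day as a term. In the scan-day fit, leaving out TGFb replicate 1 leaves only day 2 with both groups, and leaving out untreated replicate 3 leaves only day 1. The 75th percentile lay between intensities of 876 and 1569, and 52.0% to 56.7% of spots were well above background. The number of arrays limits the precision. File names give untreated replicates 1 and 2 the same number, so they may share a culture, and p-values measure the spread between these samples only.

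Most of these genes passed in neither fit. The fit on group alone called none of the 9 tested members at an adjusted p of 0.05, while 307 of 21960 genes passed, 1.40% of those tested. At an unadjusted limma p under 0.05 there were 2 members, Id2 and Bmp4, against 2530 of the 21960 genes. With scan day as a term, Id2 rose, Bmp4 fell and 7 did not pass, against 2227 genes or 10.1% of those tested. The group values did not overlap for 1 of 9 members, Bmp4, against 17.9% of all genes. The median change over the tested members was -0.00062 on the log2 scale, against 0.049 over all genes, and the median size of change was 0.15 against 0.45. With scan day as a term the median was -0.16 for the members and 0.044 for all genes. Only Id2 and Bmp4 had the same sign on both scan days. In these bulk samples fewer cells of a type and less RNA per cell cannot be told apart.

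**Figure D1:**
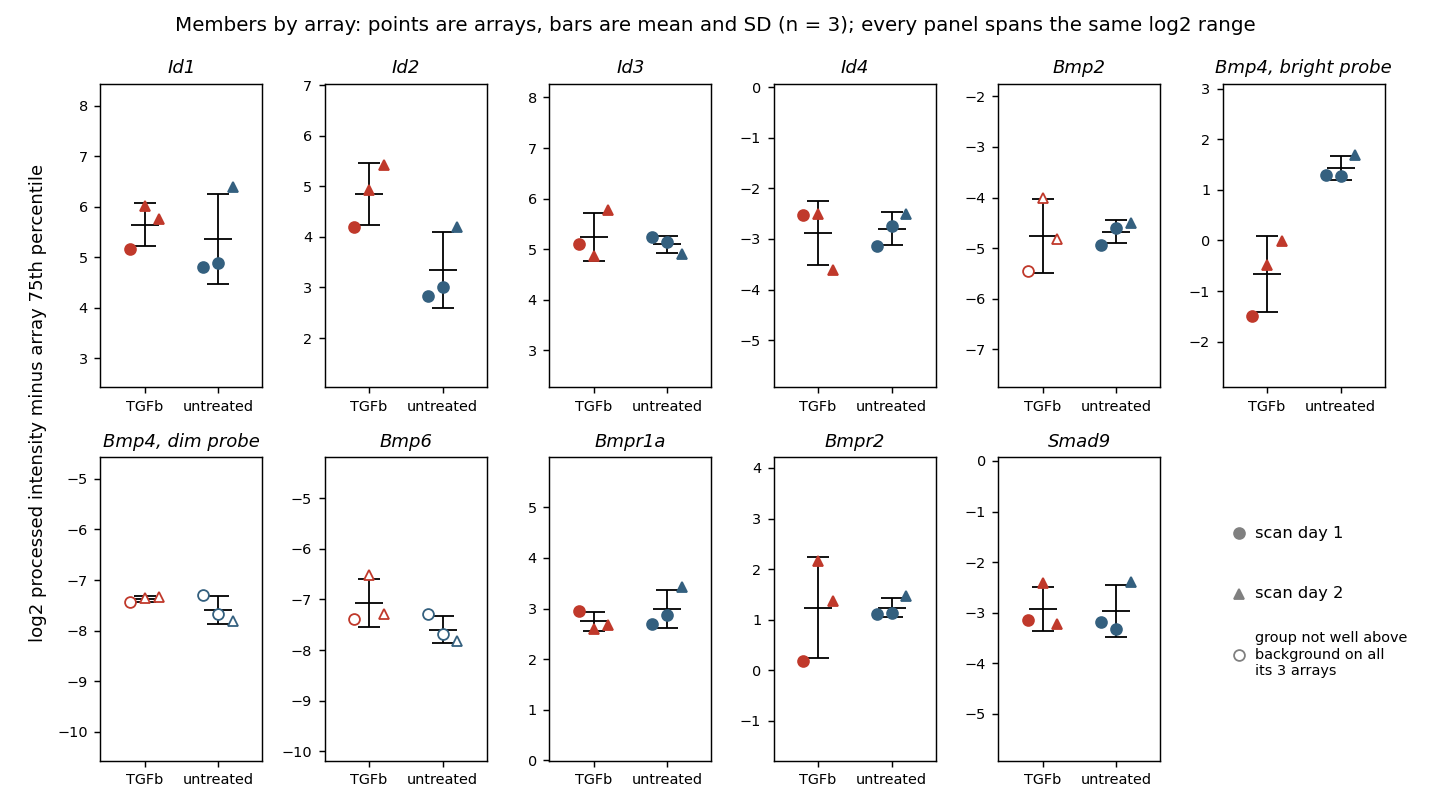
Log2 intensity relative to each array's 75th percentile (vertical axis) for the 10 members, TGFb arrays left of untreated arrays, with marks for scan day, bars for the mean and SD of each group, and open marks for a group whose probe was not well above background on all 3 of its arrays. Bmp4 is lower on every TGFb array than on any untreated array, and Id2 is higher except where TGFb replicate 1 (4.19) meets untreated replicate 3 (4.20).

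Cell-type markers were read beside the members. Of 8 myoblast markers 7 were above background on all 6 arrays (all but Myf5), with summed linear levels relative to the 75th percentile of 253 to 520 with TGFb and 301 to 519 without. None of the 7 tested passed on group alone, and with scan day Des fell (-1.28) and Ncam1 rose (1.29), though the other 2 Ncam1 probes gave -0.65 and -1.22 in that fit. The 6 differentiated-muscle markers summed to 470 to 827 with TGFb and 931 to 1260 without, and 2 of them, Myh8 and Actn2, fell on group alone and 4 with scan day. Myh3, the brightest of them, did not pass (0.028 on group alone, -0.26 with scan day). Its other tested probe gave -0.98 and -1.17, the latter with a limma adjusted p of 0.0246 over all probes. Fibroblast markers summed to 2.8 to 5.27 with TGFb and 2.39 to 3.87 without, with Dpt above background nowhere. Most of that sum was Cd34 (0.87 on group alone, not passed), while the median over the 5 tested was -1.22, none passed on group alone, and with scan day Dcn (-2.57) and Thy1 (-1.55) fell. Endothelial markers summed to 0.711 to 3.34 with TGFb and 0.997 to 4.18 without, with Vwf falling with scan day (-1.30) and Tek, Tie1, Emcn and Cldn5 above background nowhere. Pericyte and smooth muscle markers summed to 31.2 to 45.6 with TGFb and 21.2 to 25.5 without, with Myh11 above background nowhere. Of the 5 tested, Abcc9 fell on group alone (-2.63, limma adjusted p 0.0149) and none rose, and with scan day Rgs5 rose (1.57), while Notch3 was at -0.88 on group alone and did not pass. Macrophage markers summed to 16.4 to 118 with TGFb and 16.3 to 66.8 without, with Cd68 and Lyz2 above background nowhere. That sum followed the scan day, at 16.3 to 16.6 on day 1 and 66.8 to 118 on day 2. The endothelial sum did too, at 3.34 to 4.18 on day 1 and 0.711 to 0.997 on day 2. Itgam gave most of the macrophage sum (1.17 on group alone, not passed), while another Itgam probe gave -1.67. None of the 3 tested macrophage markers passed in either fit, and Ptprc and Adgre1 were too dim to test. The part of these marker differences in the Id2 and Bmp4 results, and in those of the other pathway genes, was not tested.

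Id1 is a standard readout of BMP signalling. It measured 5.17, 6.01 and 5.76 in TGFb replicates 1, 2 and 3, against 4.81, 4.89 and 6.39 in untreated replicates 1, 2 and 3. The untreated spread was wide, with replicate 3 above every TGFb array, and the groups overlap. Means were 5.65 ± 0.43 with TGFb and 5.36 ± 0.89 without (SD, n = 3 each), a difference of 0.28 ± 0.52 (SE, 95% interval -0.97 to 1.54) with a limma adjusted p of 0.846. With scan day as a term the difference was -0.094 ± 0.23 (-0.68 to 0.50, limma adjusted p 0.837), a change of sign. Within day 1 it was 0.32 and within day 2 -0.51. The scan days differed by 1.54 among untreated arrays and by 0.71 among TGFb arrays, both larger than the difference between the groups in either fit.

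Genes with the pattern most like Id1 were ranked by the root mean square difference of log2 values, each gene centred on its mean over the 6 arrays, among the 12347 genes above background on all of them that were left without clone and predicted names. The nearest were Clock (0.0251), Brap (0.051), Rmi1 (0.0582), Wbp4 (0.0584) and Dnm1l (0.0672). Clock is a circadian transcription factor and Dnm1l a mitochondrial fission enzyme. Likeness over 6 arrays that differ chiefly by scan day is a description only.

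Id2, an Id factor that can also bind the cell-cycle regulator Rb, did not pass on group alone and passed with scan day in the fit. It measured 4.19, 4.93 and 5.41 in TGFb replicates 1, 2 and 3, against 2.83, 3.00 and 4.20 in untreated replicates 1, 2 and 3. The lowest TGFb array lay just under the highest untreated array, and those 2 were scanned on different days. Means were 4.85 ± 0.62 with TGFb and 3.35 ± 0.75 without (SD, n = 3 each), a difference of 1.50 ± 0.51 (SE, 95% interval 0.26 to 2.73) or 2.83-fold, with a limma adjusted p of 0.318. With scan day as a term Id2 rose by 1.12 ± 0.20 (0.62 to 1.62) or 2.17-fold, with a limma adjusted p of 0.0284. The difference was 1.27 within day 1 and 0.97 within day 2, so Id2 was higher with TGFb on both days. On the 2 slides that held an array of each group it was 0.73 (scanned on day 2) and 1.19 (day 1). Those pairs are part of the day differences and not separate splits. The call also held with slide as a random block (limma adjusted p 0.023) and in the authors' deposited table (0.00714), and not with slide as a fixed term (0.117). A two-sided exact permutation test on the group values gave p = 0.2. The scan-day call was lost when TGFb replicate 1 or any 1 untreated replicate was left out, with differences over all 6 such fits of 0.97 to 1.27 and adjusted p of 0.0245 to 0.151. The ends of that range are the 2 within-day differences again.

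Id3 resembles Id1 in structure and is also induced by BMP. It measured 5.10, 4.87 and 5.77 in TGFb replicates 1, 2 and 3, against 5.23, 5.14 and 4.91 in untreated replicates 1, 2 and 3. The groups overlap, and TGFb replicate 3 stands highest. The difference was 0.15 ± 0.33 (SE, -0.64 to 0.95, limma adjusted p 0.868) on group alone and 0.16 ± 0.30 (-0.58 to 0.90, limma adjusted p 0.773) with scan day, and it was -0.089 within day 1 and 0.41 within day 2. Id4, which can oppose the other Id proteins in some cells, measured -2.52, -2.50 and -3.62 in TGFb replicates 1, 2 and 3, against -3.14, -2.74 and -2.51 in untreated replicates 1, 2 and 3. Its groups overlap too, with TGFb replicate 3 lowest. The difference was -0.085 ± 0.40 (-1.07 to 0.90, limma adjusted p 0.943) on group alone and -0.067 ± 0.40 (-1.08 to 0.94, limma adjusted p 0.936) with scan day.

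A difference between 2 Id genes on the same array removes only what the array adds equally to both. Its change between groups alone can be read, since the probes differ. The scan day is not removed where it shifts the genes of a pair by different amounts. Among untreated arrays the days differed by 1.54 for Id1, 1.29 for Id2, -0.275 for Id3 and 0.43 for Id4. Id2 minus Id1 was -0.98, -1.08 and -0.35 in TGFb replicates 1, 2 and 3, against -1.98, -1.89 and -2.19 in untreated replicates 1, 2 and 3. The groups did not overlap, and Id2 relative to Id1 was 1.22 higher with TGFb. Among all genes taken singly, 17.9% did not overlap between groups. The two-sided exact permutation p was 0.1, the smallest that 3 against 3 arrays can give, and 0.4 after Benjamini-Hochberg adjustment over the 6 Id pairs. The other 5 pairs overlapped between groups. Id3 relative to Id2 differed by -1.35 (exact permutation p 0.2) and Id4 relative to Id2 by -1.58 (exact permutation p 0.2), while Id3 and Id4 relative to Id1 differed by -0.13 and -0.37.

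Bmp4, a ligand that signals through Bmpr1a and Bmpr2, was lower on every TGFb array. Its brighter probe read intensities of 336, 851 and 1342 in TGFb replicates 1, 2 and 3, against 2147, 2417 and 5090 in untreated replicates 1, 2 and 3. Relative to the 75th percentile these were -1.50, -0.48 and -0.011, against 1.29, 1.28 and 1.70 in the same order. All 3 TGFb arrays lay below all 3 untreated arrays. Means were -0.66 ± 0.76 with TGFb and 1.42 ± 0.24 without (SD, n = 3 each), a difference of -2.09 ± 0.44 (SE, -3.15 to -1.03), 4.25-fold lower, with an unadjusted p of 0.00288 and a limma adjusted p of 0.107. With scan day as a term Bmp4 fell by 2.36 ± 0.26 (-3.01 to -1.72), 5.15-fold lower, with a limma adjusted p of 0.00708. The difference was -2.78 within day 1 and -1.94 within day 2. Array pairs from those same days, on the 2 shared slides, differed by -2.18 (day 2) and -2.78 (day 1). A two-sided exact permutation test gave p = 0.1, the smallest these group sizes allow. Leaving out each array in turn with scan day kept differences of -2.78 to -1.94 and adjusted p of 0.00744 to 0.0534, and the call was lost only without TGFb replicate 1. The ends of that range are the 2 within-day differences again.

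Bmp4 has a dimmer probe, and its probe pair is shown because its levels come from the bright one alone. The first 30 bases of each, 5′ to 3′, are given in lower case with no part marked.
Bright Bmp4 probe: caaccacctacacataccacacaaactgct
Dim Bmp4 probe: gacaaatatatttataactacatattaaaa
They lie at chr14:47003391-47003450 and chr14:47003198-47003257 on the minus strand of mm9, with starts 193 bases apart, and have GC contents of 38.3% and 15%. The dim probe was above background on no array, at -7.44, -7.35 and -7.34 in TGFb replicates 1, 2 and 3, against -7.29, -7.67 and -7.82 in untreated replicates 1, 2 and 3.

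Bmp2, a ligand of the same subfamily, was dim. It measured -5.46, -4.00 and -4.82 in TGFb replicates 1, 2 and 3, against -4.93, -4.61 and -4.49 in untreated replicates 1, 2 and 3, and was above background on 2 of 3 TGFb arrays and on 3 of 3 untreated arrays. The groups overlap, and the difference was -0.084 ± 0.42 (SE, -1.12 to 0.95, limma adjusted p 0.947), or -0.30 ± 0.32 (-1.10 to 0.49, limma adjusted p 0.587) with scan day. Bmp6, a ligand known for control of iron balance, gave -7.39, -6.52 and -7.28 in TGFb replicates 1, 2 and 3, against -7.30, -7.68 and -7.81 in untreated replicates 1, 2 and 3. No array had it above background, so no fold is given.

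The receptors did not pass. Bmpr1a, the type I receptor, measured 2.95, 2.60 and 2.68 in TGFb replicates 1, 2 and 3, against 2.70, 2.87 and 3.42 in untreated replicates 1, 2 and 3. Its groups overlap, and the difference was -0.25 ± 0.30 (SE, -0.98 to 0.48, limma adjusted p 0.785), or -0.31 ± 0.25 (-0.93 to 0.32, limma adjusted p 0.481) with scan day. Bmpr2, the type II receptor, measured 0.18, 2.17 and 1.36 in TGFb replicates 1, 2 and 3, against 1.12, 1.14 and 1.46 in untreated replicates 1, 2 and 3. TGFb replicates 1 and 2 stand at opposite ends of all 6 arrays, and the difference was -0.00062 ± 0.53 (-1.28 to 1.28, limma adjusted p 1), or -0.32 ± 0.37 (-1.25 to 0.61, limma adjusted p 0.628) with scan day.

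Smad9, a receptor-activated Smad of the BMP branch, measured -3.14, -2.42 and -3.23 in TGFb replicates 1, 2 and 3, against -3.19, -3.32 and -2.39 in untreated replicates 1, 2 and 3. The groups overlap, with the highest value of each on scan day 2. The difference was 0.039 ± 0.39 (SE, -0.91 to 0.98, limma adjusted p 0.974), or -0.16 ± 0.28 (-0.87 to 0.55, limma adjusted p 0.763) with scan day. On group alone the 95% intervals of Id1, Id4, Bmp2, Bmpr2 and Smad9 reach about 1 log2 unit in both directions, so these data do not show that they stayed level. Those of Id3 (-0.64 to 0.95) and Bmpr1a (-0.98 to 0.48) reach nearly as far in 1 direction, so the same holds for these genes.

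**Figure D2:**
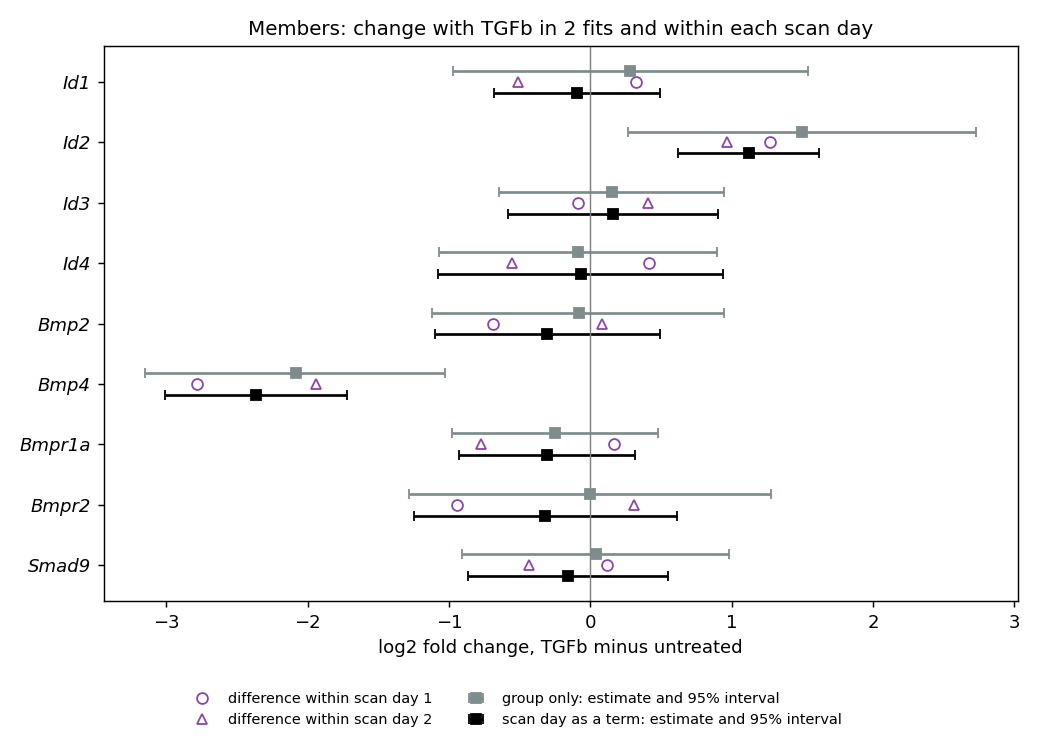
Log2 difference, TGFb minus untreated (horizontal axis), for the 9 tested members with 95% intervals from the fit on group alone and from the fit with scan day, beside the differences within each scan day. With scan day the intervals of Id2 (0.62 to 1.62) and Bmp4 (-3.01 to -1.72) leave out 0, and those of the other 7 include it.

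The other genes of the pathway came from 6 lists, 73 genes of which 59 were tested. On group alone 3 rose, 1 fell and 55 did not pass, against 1.40% of all genes called. An unadjusted limma p under 0.05 was found for 19 of the 59, against 2530 of all 21960 genes. With scan day 10 rose, 5 fell and 44 did not pass, against 10.1%. Their median difference was 0.036 on group alone and 0.13 with scan day.

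The list with the most calls was that of extracellular modulators, where 3 of 15 tested genes rose and none fell on group alone, and 6 rose and 2 fell with scan day. Chrdl2, among the 2 that fell, entered the test only through its untreated arrays. Grem1 and Bmper, both among those that rose on group alone, encode secreted proteins that bind BMP ligands. Grem1, a BMP antagonist, measured 3.03, 3.80 and 3.46 in TGFb replicates 1, 2 and 3, against 0.0064, -0.099 and -0.097 in untreated replicates 1, 2 and 3. It was 11.3-fold higher with TGFb (3.49 ± 0.29, SE, limma adjusted p 0.0136). Bmper, which can raise or lower BMP activity, measured 1.21, 1.37 and 1.54 in TGFb replicates 1, 2 and 3, against -1.39, -1.26 and -0.87 in untreated replicates 1, 2 and 3. It was 5.83-fold higher (2.54 ± 0.27, limma adjusted p 0.0171). The groups did not overlap for either gene. With scan day their differences were 3.40 and 2.43, and on group alone both calls were lost when TGFb replicate 2 or 3 or untreated replicate 1 or 2 was left out, and Bmper's also without TGFb replicate 1.

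Among the other extracellular modulators, 5 did not pass on group alone and passed with scan day as a term. Fstl1, a follistatin-like glycoprotein, rose by 1.74 (limma adjusted p 0.0056), Fstl3, which binds activins, by 1.56 (limma adjusted p 0.00796), and Bmp1, a protease that cleaves the antagonist chordin, by 1.72 (limma adjusted p 0.00494). Its other tested probes gave 1.26 and 0.91 with scan day. Sost, an antagonist of Wnt and BMP signalling, fell by 1.49 (limma adjusted p 0.0261) and was above background on 2 of 3 TGFb arrays and 3 of 3 untreated arrays. Chrdl2, a chordin-like antagonist, was above background on no TGFb array and on 3 of 3 untreated arrays. A bound set at the lowest signal well above background put it 3.1-fold lower with TGFb. Chrdl2 entered the test only through its untreated arrays, so its call with scan day cannot be read as support for a fall. The Chrdl2 difference was smaller than that bound within day 2 (-1.12), with normexp background correction (-0.69) and in the authors' deposited table (-0.62). When 1 array was left out, the scan-day call was lost without untreated replicate 3 for all 5 of these genes, without untreated replicate 2 for Fstl3, Sost and Chrdl2, without untreated replicate 1 for Sost and Chrdl2, and without TGFb replicate 1 for Fstl1, Sost and Chrdl2. Nog, the antagonist noggin, measured -1.93, -0.93 and -0.56 in TGFb replicates 1, 2 and 3, against -0.20, -0.17 and -0.095 in untreated replicates 1, 2 and 3, and did not pass in either fit (limma adjusted p 0.428 and 0.0628).

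Of the 9 other receptors and co-receptors, all tested, none passed on group alone. With scan day Acvrl1, a type I receptor known from endothelium, rose by 1.51 ± 0.30 (SE, limma adjusted p 0.0389), and Hjv, a BMP co-receptor, fell by 1.73 ± 0.14 (limma adjusted p 0.00363). Hjv measured 0.95, -0.37 and -0.54 in TGFb replicates 1, 2 and 3, against 2.60, 2.59 and 1.36 in untreated replicates 1, 2 and 3. Acvr2a and Acvr1, receptors of the wider BMP and activin family, had differences of -0.97 and 0.66 on group alone and -0.95 and 0.41 with scan day. Neither passed in either fit. Of the 12 tested Smads and intracellular regulators none passed on group alone, and with scan day Smad7, an inhibitory Smad, rose by 1.61 ± 0.33 (limma adjusted p 0.0407) and Skil, a repressor of Smad activity, by 1.21 ± 0.16 (limma adjusted p 0.0122). A dimmer Skil probe gave 0.66 with scan day and did not pass (limma adjusted p 0.271). Leaving out TGFb replicate 1 or any 1 untreated replicate ended the scan-day calls of Smad7, Skil and Acvrl1, TGFb replicate 2 also those of Smad7 and Acvrl1, and untreated replicate 3 that of Hjv, with adjusted p of up to 0.197 for Smad7, 0.12 for Skil, 0.275 for Acvrl1 and 0.0537 for Hjv. Smad6, the inhibitory Smad of the BMP branch and a BMP target, differed by -0.16 on group alone and 0.60 with scan day (limma adjusted p 0.952 and 0.0786). Smad1 and Smad5, the receptor-activated Smads beside Smad9, differed by -0.23 and 0.54 on group alone, and Ski by -0.68. With scan day Smad1, Smad5 and Ski differed by 0.097, 0.38 and -0.44, and none of these passed in either fit. Bambi, a decoy receptor, was not tested.

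No other ligand passed in either fit among the 5 tested of 11. Gdf6, Bmp8b, Gdf5 and Bmp8a had differences of -0.26, -0.24, 0.12 and -0.035 on group alone, and Bmp3, Bmp5, Bmp7, Bmp10, Bmp15 and Gdf2 were too dim to test. Of the 11 tested other BMP target genes none passed on group alone. With scan day Sox9, a transcription factor of cartilage, rose by 1.22 (limma adjusted p 0.013), a call lost without TGFb replicate 1 or any 1 untreated replicate (adjusted p up to 0.13). Hey1, Hes1 and Msx1, transcriptional regulators that BMP can induce, had differences of -1.29, 1.66 and 0.85 on group alone. With scan day these were -1.52, 1.09 and 0.67 (limma adjusted p 0.071, 0.0753 and 0.13), and none passed in either fit. Each passed in the authors' deposited table and with slide as a random block, and none with slide as a fixed term.

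Id proteins act on E proteins and through them on the myogenic factors. In that list 1 of 7 tested genes fell on group alone and 2 with scan day. Myf6, a late myogenic factor, measured -1.89, -3.29 and -3.25 in TGFb replicates 1, 2 and 3, against 1.96, 2.14 and 1.08 in untreated replicates 1, 2 and 3. It was 23.1-fold lower (-4.53 ± 0.51, SE, limma adjusted p 0.0201), a call lost on group alone without TGFb replicate 2 or 3 or untreated replicate 1 or 2. Mef2c, a partner of the myogenic factors, fell by 1.74 with scan day (limma adjusted p 0.00929), a call lost without TGFb replicate 1 or untreated replicate 2 or 3 (adjusted p up to 0.0777). Myod1 measured 5.10, 6.74 and 6.97 in TGFb replicates 1, 2 and 3, against 5.76, 5.61 and 7.34 in untreated replicates 1, 2 and 3. Myod1 and Myog did not pass in either fit (limma adjusted p 0.986 and 0.586 on group alone, 0.0949 and 0.128 with scan day). Their differences were 0.036 and -0.46 on group alone and -0.53 and -0.51 with scan day. Within day 1 they were -0.59 and -0.53, and within day 2 -0.48 and -0.48. For Myog every TGFb array lay below every untreated array. Myod1 passed in the authors' deposited table (-0.44, limma adjusted p 0.0446) and Myog with slide as a random block (-0.55, limma adjusted p 0.0271). Neither passed in the other's setting or with slide as a fixed term. The E protein gene Tcf12 differed by 0.76 on group alone for its brightest probe and by -0.083 for another, so its direction depends on the probe.

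**Figure D3:**
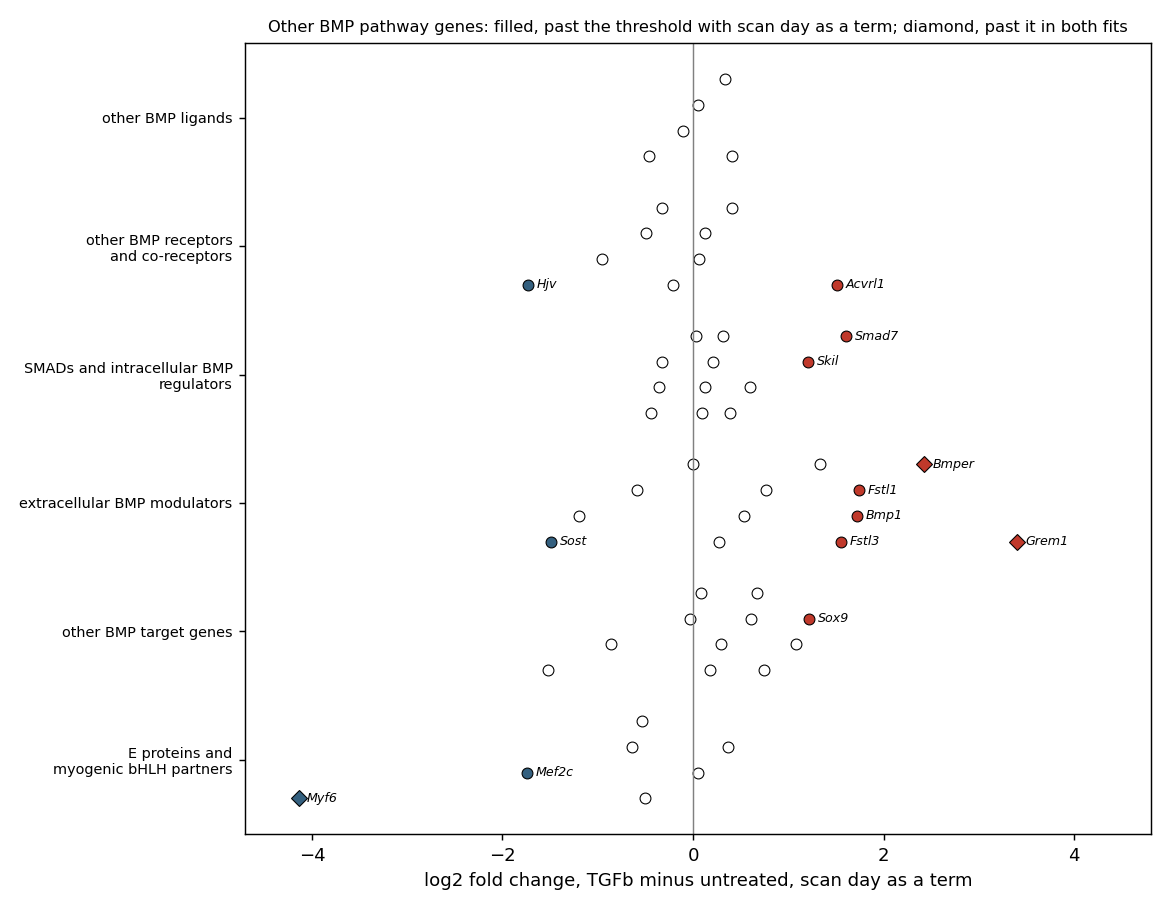
Log2 difference, TGFb minus untreated (horizontal axis), for tested genes of the 6 other lists, grouped by list, from the scan-day fit. Filled marks with names passed in that fit (red higher with TGFb, blue lower), diamonds passed in both fits, and open marks passed in neither. Grem1 (3.40) and Bmper (2.43) lie far right and Myf6 (-4.14) far left. Chrdl2, above background on no TGFb array, is left out.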

How the data were processed

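Myoblast RNA was measured on 6 arrays, 3 with TGFb and 3 without. The authors deposited scanner files of spot intensity which, per the file headers, came from Agilent Feature Extraction 10.7.3.1 and carry mm9 probe coordinates. They also deposited a table of log2 values with column medians of 7.05 to 7.06. Each column followed the log2 signal of its own array (lowest r 0.992), but its normalization stays unknown, so the table served as an alternative.

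Without control and outlier spots, the log2 of processed intensity was taken and its 75th percentile on that array subtracted. Probes well above background on 3 of 6 arrays were kept, and the brightest probe stood for its gene. Symbols were updated for the 26300 of 55681 probes that RefSeq matched (2839 changed). TGFb and untreated arrays were compared using limma 3.58.1 (R 4.3.3), adjusted by Benjamini-Hochberg over 21960 genes at 0.05. Scan day, slide, normalization, filter, probe choice and each left-out array were alternatives. A bound uses the lowest signal well above background in the dim group. The members, lists and tests were chosen with earlier results of these data known. Named are all members, the 4 genes of each list with the smallest p, those past the threshold with scan day, 8 further genes and the 5 most like Id1. Of the called pathway genes, 1 is neither named nor drawn here.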

Additional observations from a re-analysis of the deposited data

How the results depend on the processing

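Over 24 alternatives, 28 of the 41 named genes kept their direction in each, Id2 (0.96 to 1.93) and Bmp4 (-2.78 to -1.67) among them. The count of called genes was 307 over all genes, 0 of the members and 4 of the other pathway genes on group alone. It was 3280, 2 and 25 with the authors' deposited table, 2227, 2 and 15 with scan day as a term, 4280, 2 and 25 with slide as a random block, and 790, 1 (Bmp4) and 8 with slide as a fixed term. Of the genes called with scan day, Id2, Fstl3, Sost, Chrdl2, Skil, Acvrl1, Sox9 and Mef2c did not pass with slide as a fixed term. With the replicate number as a block it was 2, 0 and 0 (2955 genes at an unadjusted p under 0.05). The labels do not say that the numbers pair the samples. Deviations of same-numbered arrays correlated at 0.81, -0.72 and 0.69 for replicates 1, 2 and 3. Both replicate 1 arrays were scanned on day 1 and both replicate 3 arrays on day 2, while the replicate 2 arrays were scanned on different days. These correlations therefore cannot show whether the numbers pair the samples. Leaving out 1 array gave 0 to 3320, 0 to 2 and 0 to 20, over fits with and without scan day. On group alone no gene was called without TGFb replicate 2, untreated replicate 1 or untreated replicate 2 (1640, 1467 and 1470 genes at an unadjusted limma p under 0.05). Directions turned with quantile normalization for Id3 (-0.011) and Myod1 (-0.14). With the authors' table they turned for Id4 (0.038), Bmp8a (0.096), Smad6 (0.51) and Myod1 (-0.44). With scan day they turned for Id1 (-0.094), Smad9 (-0.16), Bmp8a (0.34), Smad1 (0.097), Smad6 (0.60) and Myod1 (-0.53). With slide as a random block they turned for Id3 (-0.010), Id4 (0.078), Bmp8a (0.72), Smad6 (0.45) and Myod1 (-0.45), and with slide as a fixed term for Id1 (-0.053), Id3 (-0.043), Id4 (0.11), Bmp8a (0.87), Smad6 (0.57) and Myod1 (-0.55). With 1 array left out the difference ran from -0.51 to 0.80 for Id1, -0.11 to 0.41 for Id3, -0.55 to 0.42 for Id4, -0.69 to 0.27 for Bmp2, -0.78 to 0.17 for Bmpr1a, -0.95 to 0.53 for Bmpr2, -0.44 to 0.33 for Smad9, -0.54 to 0.0078 for Bmp8b, -0.58 to 0.68 for Gdf5, -0.49 to 0.59 for Bmp8a, -0.71 to 0.58 for Smad1, -0.996 to 0.80 for Smad6 and -0.59 to 0.62 for Myod1. The cause was not tested. Dim probes such as Bmp2 and Bmp6 are limited by signal over background.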
